A study of Ipomoea batatas with 18 samples.

Results

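Young roots of 2 sweetpotato (Ipomoea batatas) cultivars that differ in starch content were compared 30 days into growth. The high-starch cultivar was Chuanshu 218 and the low-starch cultivar was 15-94, each with 3 libraries at this age. Of the 46840 unigenes (transcripts assembled without a genome) in the deposited table, the 25339 with at least 1 FPKM in at least 3 of these 6 libraries are described. FPKM counts sequenced fragments per unit of transcript length, relative to all fragments mapped in that library. Root RNA was taken from plants grown singly in greenhouse pots under natural light, and 12 further libraries came from the same cultivars at 65 and 100 days. Starch class and cultivar coincide, with 1 cultivar per class, so that the 2 cannot be told apart. Nothing in the labels ties a library to a plant, so a p-value here reflects only the scatter among 3 libraries a group, part of which may be technical. The membership limit fell among unigenes of low level: the 3490 at 1 FPKM or more in exactly 3 libraries had a median mean level of 1.62 FPKM, and the 3295 with exactly 2, left out, 0.855 FPKM.

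Sweetpotato storage roots develop from adventitious roots whose cambium makes new parenchyma cells. These cells take up sucrose from the phloem, cleave it, and build starch from ADP-glucose inside amyloplasts, with starch synthases lengthening the glucan chains and branching enzymes adding branches. Mature storage roots are known for starch and for the storage protein sporamin and beta-amylase. The question put by the study's design was how the transcriptomes of the cultivars differ during this development, and the 30-day roots are its earliest time. The files do not pair unigene IDs with gene names, and 0 of the 46840 IDs matched the gene table of assembly IBA_r1.0. Members could therefore not be assigned to starch, sugar or storage protein genes. Unigenes are described by their level, by the library and by the age, and 2 IDs in each direction are given. Sweetpotato is polyploid, and the sources used here do not give how reads of near-identical copies were divided among unigenes, so a level may be shared with or split from a copy.

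The labels were checked against the older roots. Among the 12 older libraries, 318 unigenes reached 1 FPKM in each high-starch and 0 in each low-starch library. Of these, 282, 318 and 315 were above 0 in the 3 high-starch libraries at 30 days and 18, 20 and 12 in the 3 low-starch ones. Of the 178 with the opposite listing, 9, 5 and 12 were above 0 in high-starch replicates 1, 2 and 3, and 160, 175 and 165 in the low-starch ones. All 6 libraries thus carried the transcripts of the cultivar on their label.

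The libraries nevertheless differed within a cultivar. Across the 25339 members, Pearson's r of log2(FPKM + 1) averaged 0.826 within a cultivar and 0.743 between cultivars, as a description over unigenes that share each library's depth. High-starch replicate 1 and low-starch replicate 2 stood apart from their groups. For high-starch replicate 1, r was 0.738 with high-starch replicate 2 and 0.81 with replicate 3, against 0.804 with low-starch replicate 3 and 0.795 with low-starch replicate 1. For low-starch replicate 2 it was 0.801 with low-starch replicate 1 and 0.841 with replicate 3, against 0.8 with high-starch replicate 3. The first principal component of the members (43.2% of the variance) placed high-starch replicate 1 at 0.04. That lay between high-starch replicates 2 and 3 (0.55 and 0.46) and low-starch replicates 1, 2 and 3 (-0.58, -0.11 and -0.37). The second (23.9%) separated high-starch replicate 1 (0.73) from low-starch replicate 2 (-0.67), with the other 4 between -0.08 and 0.13. Cultivar accounted for 38.1% of the variance among the 6 libraries.

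**Figure D1:**
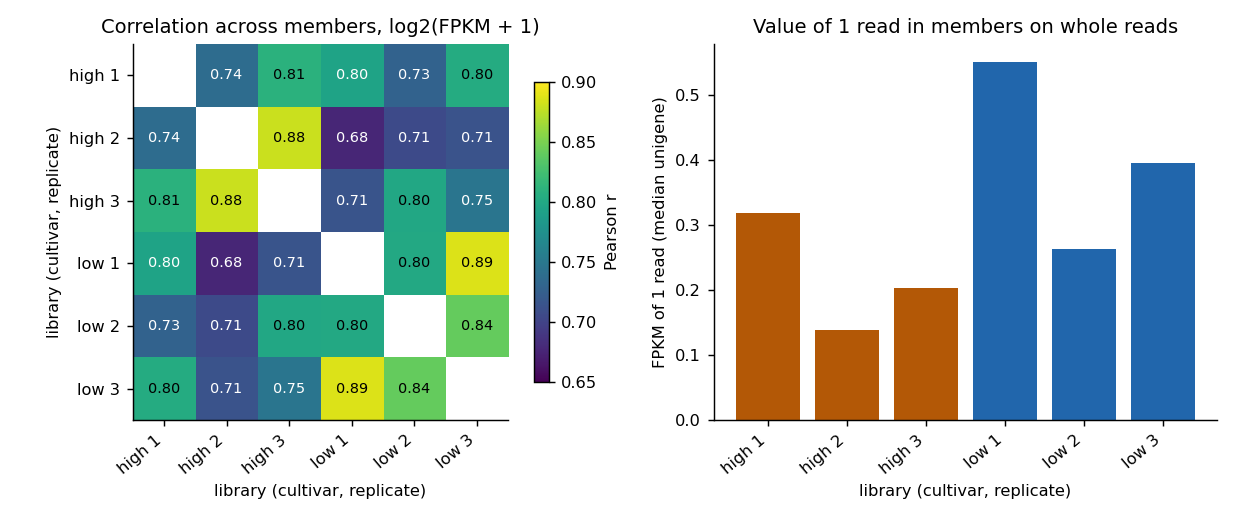
Correlation of the 6 libraries across the 25339 members (left; Pearson's r of log2(FPKM + 1)) and the FPKM that 1 read was worth in each library (right; median over members whose values lay on whole reads). High-starch replicate 1 was as close to low-starch replicates 1 and 3 (0.795 and 0.804) as to high-starch replicate 3 (0.81), low-starch replicate 2 was as close to high-starch replicate 3 (0.8) as to low-starch replicate 1 (0.801), and 1 read was worth most in low-starch replicate 1 (0.551 FPKM) and least in high-starch replicate 2 (0.138 FPKM).

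Depth also differed. Low FPKM values lay on steps set by 1 read, which gave relative depth if no further scaling was applied between libraries. One read was worth a median of 0.319, 0.138 and 0.203 FPKM in high-starch replicates 1, 2 and 3 and 0.551, 0.263 and 0.395 FPKM in low-starch replicates 1, 2 and 3. On that condition the low-starch libraries were on average shallower, with overlap between the groups. The two-sided exact permutation p was 0.2 on the log2 value (n = 3 per group, where 0.1 is the smallest possible). Summed FPKM was also lowest in high-starch replicate 2 (731156) and highest in low-starch replicate 1 (1371655), where 1 read was worth least and most. What links the sums to the value of 1 read was not tested. Unigenes above 0 numbered 28886, 34923 and 32840 in high-starch replicates 1, 2 and 3 and 24300, 29446 and 26687 in the low-starch ones. Between the cultivars these numbers gave an exact permutation p of 0.2. Within each cultivar the library where 1 read was worth least held the most, which was not tested.

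Most of one block of transcripts was present or absent together. At 30 days 162 members were at 1 FPKM or more in all 3 low-starch libraries and in high-starch replicate 1, and were listed at 0 in high-starch replicates 2 and 3. The same shape with high-starch replicate 2 or 3 in place of replicate 1 held 4 and 5 unigenes. Mirrored shapes, with each high-starch library and 1 of the low-starch ones, held 53, 172 and 48 for low-starch replicates 1, 2 and 3. This shape was picked after its values were seen, and it is described with no test.

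The 12 older libraries, which did not enter that rule, split over most of the 162 unigenes. In 6 of them at least 95.7% of the 162 were above 0: high-starch 65-day replicates 1 and 3, low-starch 65-day replicates 1 and 3, and low-starch 100-day replicates 1 and 2. In the other 6 between 2.47% and 6.17% were above 0, among them all 3 high-starch 100-day libraries. No older library lay between, and the split ran through 3 of the 4 older groups. The mirrored sets did not split this way. For the 172 unigenes of low-starch replicate 2, 6 older libraries had at least 90% above 0, 0 had under 10%, and 6 lay between. At 30 days the block took 0.444% of the summed FPKM of high-starch replicate 1 and 0.697%, 0.2% and 0.676% in low-starch replicates 1, 2 and 3.

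Within the block, 20 unigenes were called lower in the high-starch cultivar (the call is defined below with the comparison) and 0 higher, beside 2.9% and 4.25% of all unigenes tested. The rule that picked the block, with 0 in 2 high-starch libraries, fixed this direction. Those 20 had median levels of 174.0, 32.9 and 131.0 FPKM in low-starch replicates 1, 2 and 3 and 6.13 FPKM in high-starch replicate 1. The remaining 142 had medians of 11.8, 2.32 and 7.15 FPKM in the low-starch libraries and 20.5 FPKM in high-starch replicate 1. In the older libraries that held the block, the 20 had medians between 4.67 and 19.0 FPKM. The highest was in high-starch 65-day replicate 3, where the other 142 had a median of 1.94 FPKM. The 20 were chosen by the 30-day call, so their high level in the low-starch libraries of that age follows from the choice. Among the other 142 the median at that age was highest in high-starch replicate 1. Some unigenes of the block did not follow the split of the older libraries. A unigene among the 20 stood at 4.578 to 5.864 (log2(FPKM + 1)) in every older low-starch library. In the older high-starch libraries it was at 0.475 or less. Some of the other 142 were above 0 in libraries that lacked most of the block. The source of the block's transcripts, and what distinguishes the libraries that carried them, was not tested.

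**Figure D2:**
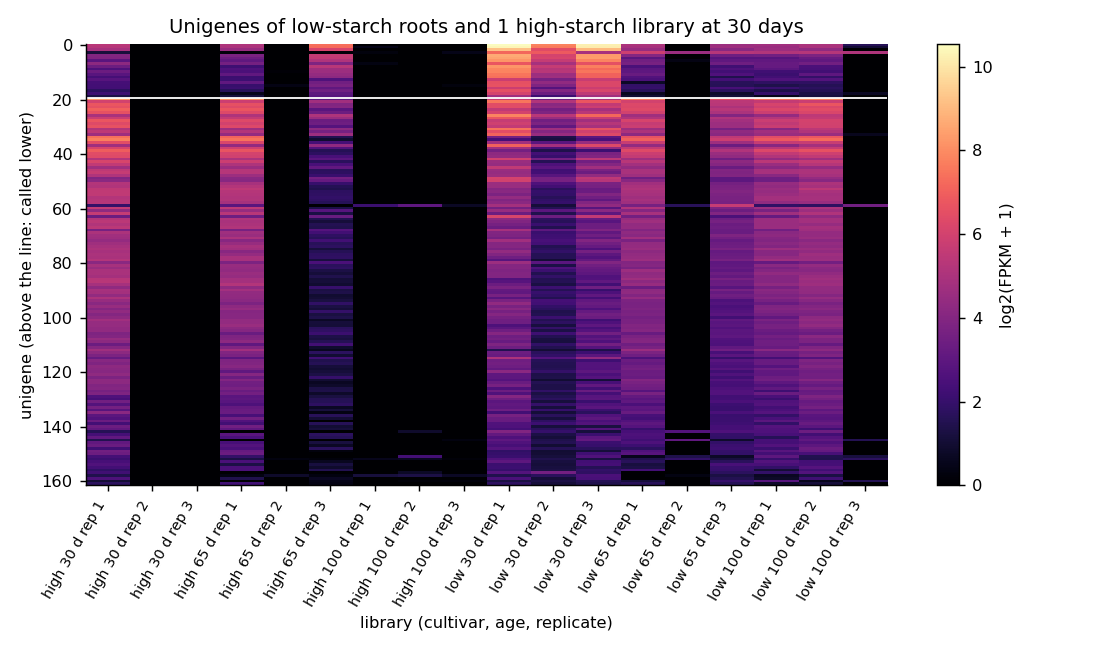
Level (colour, log2(FPKM + 1)) of the 162 unigenes listed at 0 in high-starch replicates 2 and 3 at 30 days and at 1 FPKM or more in the other 4 libraries of that age, in all 18 libraries; rows above the white line are the 20 called lower in the high-starch cultivar. Columns are almost filled or almost empty: 6 of the 12 older libraries held at least 95.7% of the block and 6 held at most 6.17%.

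Between the cultivars, 2113 of the 25339 members (8.34%) were called different at 30 days. Of these, 1217 were higher in the high-starch cultivar and 896 lower, or 876 lower without the block. Without high-starch replicate 1 the numbers were 1253 and 1049, and without low-starch replicate 2 they were 1147 and 946. Members were called when limma, fitted to log2(FPKM + 1) of all 18 libraries in 6 groups, gave an adjusted p under 0.05 (Benjamini-Hochberg) and the difference was 2-fold or more. Over all 32529 unigenes tested, 7.15% were called, 4.25% higher and 2.9% lower. A further 166 higher and 47 lower called unigenes were not members. At an unadjusted p under 0.05 there were 5130 members.

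With adjusted p alone, and no 2-fold limit, 1219 members were higher and 897 lower. The test itself thus passed few differences under 2-fold, with a median SE of 0.53 (log2). The differences called were large, which follows at least in part from this selection. Those higher in the high-starch cultivar had a median of 2.23 on the log2(FPKM + 1) scale, with quartiles of 1.86 and 2.87. Those lower had a median of -2.54, with quartiles of -3.47 and -1.96. At least 8-fold on this scale were 262 higher and 322 lower, and at least 16-fold were 85 and 147. The median over all members was 0.13 and over all unigenes tested 0.19.

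Most calls involved transcripts that were nearly missing in one cultivar. The median called member higher in the high-starch cultivar averaged 6.81 FPKM there and 0.147 FPKM in the low-starch cultivar. For members lower in the high-starch cultivar the medians were 17.8 FPKM in the low-starch and 0.578 FPKM in the high-starch cultivar. Of those called, 503 higher and 270 lower were listed at 0 in all 3 libraries of the other cultivar. These met the membership limit through 1 cultivar alone, and their difference on this scale is set by its level and the pseudocount. Only 200 of the 1217 and 302 of the 896 were at 1 FPKM or more in all 6 libraries. The 16249 members at that level in all 6 were called in 3.09% of cases. Called members with a mean of 100 FPKM or more in the cultivar where they were higher numbered 37 higher and 127 lower. In bulk root RNA, fewer cells of a type and less RNA per cell cannot be told apart.

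**Figure D3:**
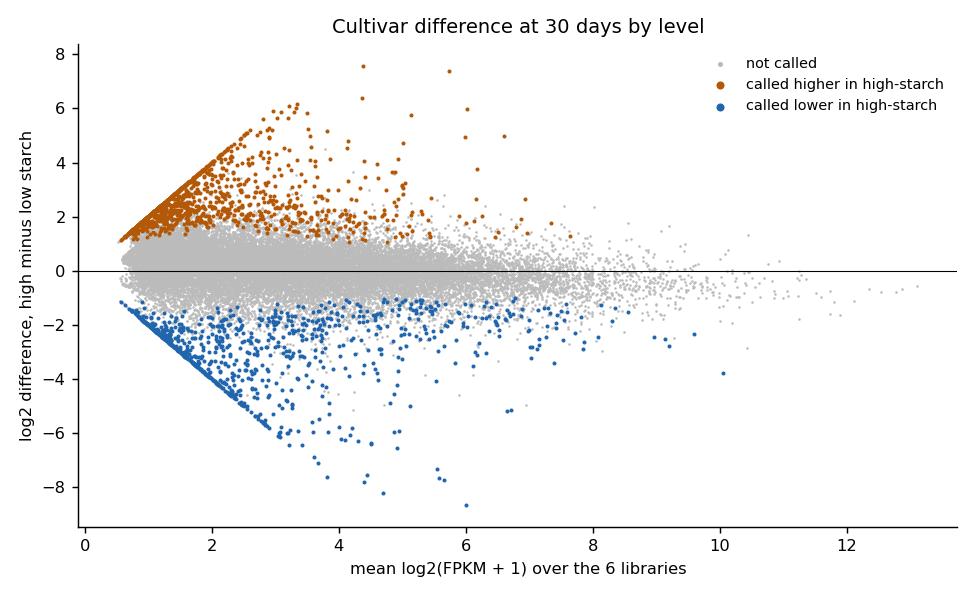
Difference at 30 days (high-starch minus low-starch, log2(FPKM + 1)) against the mean level over the 6 libraries for the 25339 members; orange and blue points are the 1217 called higher and the 896 called lower. Calls higher in the high-starch cultivar crowd at low levels, those lower extend to high levels, and the straight edges at the left hold unigenes near 0 in 1 cultivar.

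The unigene with the largest difference higher in the high-starch cultivar was Iba_33414. Its level was 175.06, 201.25 and 662.59 FPKM in high-starch replicates 1, 2 and 3 and 0, 0.98 and 0.74 FPKM in the low-starch ones. The lowest high-starch value was far above every low-starch value. The difference was 7.57 (log2, SE 0.46; limma, Benjamini-Hochberg adjusted p = 5.14e-08). In the older roots it averaged 452.1 ± 118.9 FPKM (SD, n = 3) at 65 days and 120.2 ± 38.48 FPKM at 100 days in the high-starch cultivar, and 0.3233 ± 0.2875 and 0.3633 ± 0.3179 FPKM in the low-starch cultivar.

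Iba_32651 had the highest mean among the other eligible members higher in the high-starch cultivar. It stood at 1535.04, 323.9 and 656.05 FPKM in high-starch replicates 1, 2 and 3 and at 3.49, 4.04 and 2.11 FPKM in the low-starch ones. The groups did not overlap, although the high-starch libraries were spread widely, with replicate 1 highest. The difference was 7.38 (log2, SE 0.62; limma, Benjamini-Hochberg adjusted p = 5.74e-07). It ranked 86th by mean level in the high-starch cultivar and 17859th in the low-starch cultivar.

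Iba_34341 had the largest difference in the other direction. It was at 0, 2.13 and 9.49 FPKM in high-starch replicates 1, 2 and 3 and at 800.42, 1085.97 and 2454.22 FPKM in the low-starch ones. No libraries overlapped, and the value of 0 was in high-starch replicate 1. The difference was -8.65 (log2, SE 0.78; limma, Benjamini-Hochberg adjusted p = 1.29e-06). It was 64th by mean level in the low-starch cultivar and 18021st in the high-starch cultivar, and at 65 and 100 days its difference was -6.92 and -8.45.

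Iba_17847, the most abundant of the other eligible members lower in the high-starch cultivar, was high in both. Its level was 353.04, 616.77 and 108.48 FPKM in high-starch replicates 1, 2 and 3 and 4757.24, 1812.89 and 7042.66 FPKM in the low-starch ones. The groups did not overlap, but the gap between the highest high-starch and the lowest low-starch library was narrow beside the spread within the groups. The difference was -3.77 (log2, SE 0.98; limma, Benjamini-Hochberg adjusted p = 0.0233). The call was lost in a fit of the 6 libraries alone (adjusted p = 0.0757). It was also lost without high-starch replicate 3, without low-starch replicate 1 and without low-starch replicate 3, with differences of -3.07, -3.63 and -3.35. With relative depth as a covariate the difference was -2.71 and the call was lost as well, as it was without high-starch replicate 2 and low-starch replicate 1 together (-4.18). At 65 days the difference was -4.81 (adjusted p = 0.00636) and at 100 days -2.01 (adjusted p = 0.214).

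**Figure D4:**
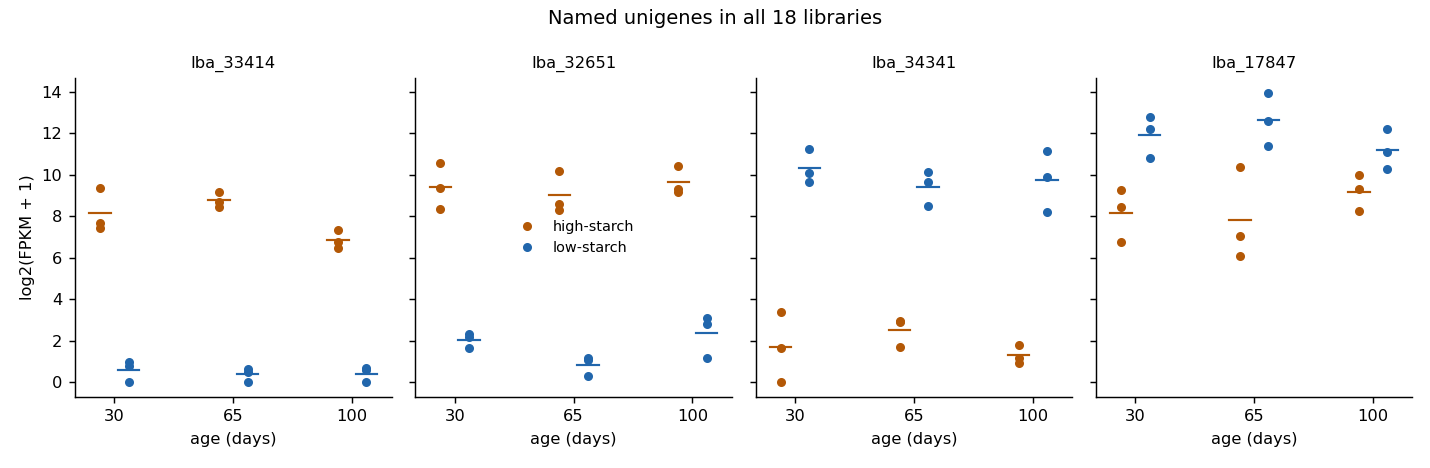
Level (log2(FPKM + 1)) of Iba_33414, Iba_32651, Iba_34341 and Iba_17847 in the 18 libraries by age in days; points are libraries and bars group means (n = 3). The libraries of the cultivars do not overlap at any age for any of these unigenes. The 100-day difference of Iba_17847 was not called by limma. For Iba_17847 the difference was -3.77 at 30 days and -2.01 at 100 days, a change with age that limma did not call (Benjamini-Hochberg adjusted p = 0.929).

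These 4 were taken from the 457 members higher and 591 lower that were called, reached a mean of 10 FPKM where they were higher and had no overlap between libraries. The 10 largest differences among them were at least 5.86 higher and -6.88 or beyond lower. In a separate fit of the 12 older libraries, all 10 of the higher and 7 of the 10 lower were called the same way. The 10 lower included unigenes of the block described above, which 6 of the older libraries mostly lacked.

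The direction of the calls followed abundance. Among 8999 members with a mean under 5 FPKM over the 6 libraries, 726 were called higher in the high-starch cultivar and 282 lower, so that 72.0% of calls were higher. The share was 52.3% between 5 and 20 FPKM (361 and 329) and 38.0% between 20 and 50 FPKM (87 and 142). At 50 FPKM and over it was 23.1%, from 43 higher and 143 lower among 3515 members. The median difference of all members in these classes ran from 0.41 through 0.15 and -0.03 to -0.28.

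Single libraries moved with this order. The median deviation of members under 5 FPKM from their mean over the 6 libraries was 0.38 in high-starch replicate 2 and -0.59 in low-starch replicate 1, with the other 4 between -0.15 and 0.22. At 50 FPKM and over the same libraries deviated by -0.52 and 0.46. They were also the libraries where 1 read was worth least and most. Without both, an alternative chosen after seeing the data, the share higher stayed at 72.4% under 5 FPKM, while at 50 FPKM and over it was 51.2%. With the value of 1 read as a covariate the shares were 73.0% and 66.0%. With quantile normalization they were 60.1% and 32.4%, without high-starch replicate 1 they were 73.2% and 20.9%, and without low-starch replicate 2 they were 71.9% and 15.9%. Leaving out high-starch replicate 2 alone gave 35% at 50 FPKM and over, and leaving out low-starch replicate 1 alone 36.9%. Higher calls were thus the larger number among rare members under each of these settings. Among abundant members lower calls were the larger number except with the covariate and without both libraries. Membership and class were both set by the values of the 6 libraries compared. Of all calls, 503 higher and 270 lower were listed at 0 in all 3 libraries of the other cultivar. They became members through the cultivar where they were higher. None of these settings removed that choice, and its part in the share under 5 FPKM was not tested.

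Reads behind the rare members were few. Values of 3773 of the 8999 members under 5 FPKM (41.9%) could be placed on whole reads in these libraries. Their median was 6, 16 and 10 reads in high-starch replicates 1, 2 and 3 and 2, 6 and 4 reads in low-starch replicates 1, 2 and 3. Listed at 0 were 504, 281 and 294 of the 3773 in the high-starch libraries and 1446, 603 and 918 in the low-starch ones. The share of calls that were higher was 72.2% among those placed on reads (322 and 124) and 71.9% among the rest (404 and 158). The part of depth in these calls beyond the covariate fit was not tested.

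Calls were also counted among the most abundant transcripts. The 100 members with the highest mean over the 12 older libraries, a ranking that used none of the 30-day values, included 0 called higher and 2 called lower, with a median difference of -0.49, beside 4.25% called higher and 2.9% called lower over all unigenes tested. They took 16.3%, 14.8% and 20.7% of the summed FPKM in the high-starch libraries and 22.7%, 16.4% and 21.6% in the low-starch ones, and the groups overlapped. The top 1000 by the same ranking included 12 higher and 35 lower with a median of -0.35, beside 0.13 over all members.

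Complete separation of the libraries was more common than a call. With all 3 libraries of one cultivar above all 3 of the other and a 2-fold gap between means, 2344 members were higher in the high-starch cultivar and 1567 were lower (15.4%), beside 14.5% of all unigenes tested (9.23% and 5.29%). Of the members called, 1202 of the 1217 higher and 886 of the 896 lower were separated in this way. Leaving out high-starch replicate 1 raised the numbers to 4055 and 3014, and leaving out low-starch replicate 2 to 3547 and 2502. Each of the other 4 libraries, left out in turn, gave 2679 to 3093 higher and 1673 to 2025 lower, where fewer libraries by themselves separate more often. An 8-fold gap between means was reached by 619 members, of which 35 were not called.

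Those same libraries held the most extreme values within their cultivars. In the high-starch cultivar 1491 members (5.88%) had an 8-fold range or more over the 3 libraries, and replicate 1 was the farthest from the middle library in 1063 of them, above it in 774. In the low-starch cultivar the number was 1485 (5.86%), and replicate 2 was farthest in 884, below the others in 574. The median range (log2) was 1.17 among high-starch libraries and 1.22 among low-starch ones.

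Many members were listed in 1 cultivar alone. With 1 FPKM or more in each high-starch library and 0 in each low-starch one there were 562 members, and 291 had the opposite listing. Each met the membership limit through the cultivar where it was listed. The same unigenes are therefore all those so listed among the unigenes tested, 2.62% of them for both (1.73% and 0.895%). Their levels were low, with medians of 3.9 and 6.86 FPKM in the high- and low-starch set. At 5 FPKM or more in all 3 libraries were 84 and 94. The most abundant reached a mean of 59.75 FPKM in the high-starch set and 397.0 FPKM in the low-starch set. Without low-starch replicate 2 the high-starch set grew to 919, and without high-starch replicate 1 the low-starch set grew to 479.

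The older libraries repeated these listings in part, at a looser limit of above 0 in place of 1 FPKM. Of the 562, 498 were above 0 in all 6 older high-starch libraries, 333 were at 0 in all 6 older low-starch ones, and 300 met both. Of the 291, 232 were above 0 in all 6 older low-starch libraries, 186 were at 0 in all 6 older high-starch ones, and 148 met both. Above 0 in all 6 older libraries of the cultivar where they had not been listed were 6 of the 562 and 0 of the 291, and in 4 or more of the 6 there were 46 and 4. Whole reads could be placed for 266 and 136 of these members, with a median of 41.0 and 36.0 reads summed over the 3 libraries. With no read counts deposited, a listing at 0 says only that no read was assigned.

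Differences at 30 days were then looked for in older roots. To keep the spread estimates separate, the 6 libraries of 30 days were fitted alone, which called 483 members higher and 409 lower beside 2.74% of all unigenes tested (1.48% and 1.26%). In the fit of the 12 libraries of 65 and 100 days, averaged over both ages, 18.6% of all unigenes tested were called (11.2% higher and 7.43% lower). There 457 of the 483 (94.6%) and 367 of the 409 (89.7%) were called in the same direction, and 482 and 406 had the same sign. The median difference was 2.89 at 30 days and 2.57 in the older roots for those higher, and -3.42 and -2.98 for those lower. All 12 older libraries were separated by cultivar for 414 of the 483 and 337 of the 409. Without high-starch replicate 1 the numbers called at both were 560 and 258. Fits of 5 libraries otherwise called few unigenes at both, and without high-starch replicate 2, high-starch replicate 3 or low-starch replicate 3 the numbers were 0 and 0, and without low-starch replicate 1 or 2 they were 36 and 66 or 60 and 179.

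Calls from the fit of 18 libraries share their spread estimate with the older roots, though not their 30-day values. Of the 1217 higher and 896 lower, 1019 (83.7%) and 726 (81.0%) were called the same way in the 12 older libraries, and 0 the opposite way. Taken from the other side, 2732 members were called higher in the older roots and 1942 lower. At 30 days 2560 and 1836 of these had the same sign. Their median differences at 30 days were 1.39 and -1.43, beside 1.64 and -1.75 in the older roots.

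**Figure D5:**
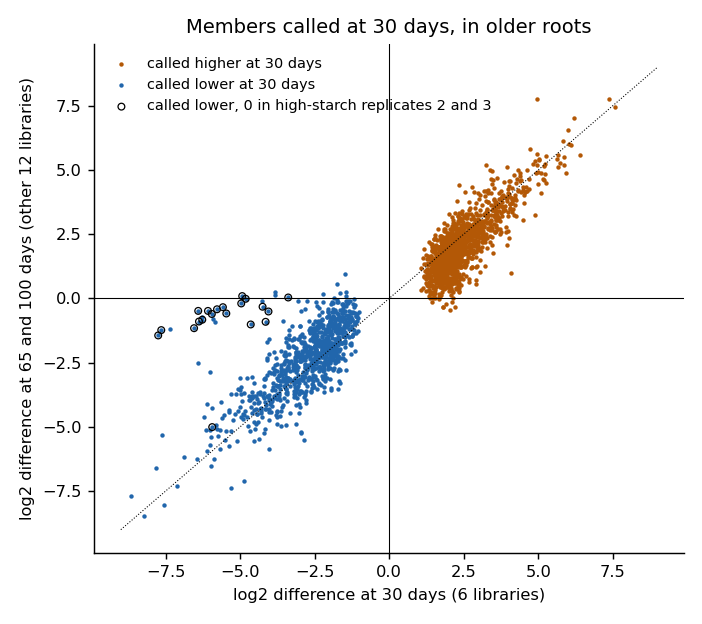
Difference at 30 days (log2, 6 libraries) against the difference averaged over 65 and 100 days (log2, other 12 libraries) for the 1217 members called higher (orange) and the 896 called lower (blue) at 30 days. Most points lie near the dotted line of equal differences; the open circles, unigenes of the block listed at 0 in high-starch replicates 2 and 3, have an older difference smaller in size than 1.5 in 19 of 20 cases.

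Some members called at 30 days had a small difference in older roots. Of the members called lower by at least 8-fold at 30 days, 32 had an older difference smaller in size than 1.5 (log2), and 19 of these belonged to the block of 162 unigenes. Only 4 members called higher by at least 8-fold had an older difference under 1.5. With an older difference smaller in size than 0.5 there were 57 higher and 52 lower. The 52 lower had a median level (log2(FPKM + 1)) of 5.33 in the low-starch cultivar at 30 days against 2.37 at 65 and 2.78 at 100 days, and of 2.03, 2.62 and 2.62 in the high-starch cultivar. The 57 higher had a median of 0.36 in the low-starch cultivar at 30 days, 1.47 at 65 and 1.51 at 100 days, and of 2.28, 1.83 and 1.68 in the high-starch cultivar. The 52 lower included unigenes of the block, which 6 of the older libraries, from both cultivars, mostly lacked. In the medians of both sets the low-starch libraries of 30 days were the ones that lay apart. These sets were chosen on the values given, which are a description.

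The test of the difference between ages called none of them. The interaction of cultivar and age passed a Benjamini-Hochberg adjusted p of 0.05 in limma for 0 members from 30 to 65 days and 0 from 30 to 100 days (0% of all unigenes tested in both). The smallest adjusted p was 0.59 and 0.92. At an unadjusted p under 0.05 there were 1031 (4.07%) and 1338 (5.28%) members, beside 4.45% and 5.17% of all unigenes tested. The median SE of an interaction was 0.75 on the log2 scale and that of the 30-day difference 0.53. With weights estimated per library, 60 members passed for 30 to 100 days.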

How the data were processed

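The authors deposited 1 table of FPKM values for 46840 unigenes in 18 libraries (2 cultivars, 3 ages, 3 libraries each). Per the labels' protocols, Trizol RNA was treated with TURBO DNA-free and made into TruSeq stranded mRNA libraries. Per the submitters' processing notes edgeR was used, with no role or version. The sources used here give no assembler, aligner, counter, scaling between libraries or read totals, so no count model was run. Unigenes at 1 FPKM or more in 3 of 18 libraries (32529) were tested on log2(FPKM + 1) with limma 3.58.1 in R 4.3.3 (6 groups, 12 residual degrees of freedom, eBayes trend). Fits of 6 and 12 libraries left 4 and 8. This scale understates changes of rare unigenes. Relative depth came from the steps of low values, and 99.3% of library pairs lay within 0.05 (log2) of the fitted ratio. Each unigene named was, per direction, the largest difference or the highest mean of the others among called members at 10 FPKM or more with no overlap. Members, sets and rules were chosen with earlier results of these data known. The limma and depth steps were tested on simulated data. There the fit of 18 libraries recovered 2% of 50 unigenes changed by 1 (log2), 52% at 2, 70% at 3 and 90% at 4. The fit of 6 libraries recovered 0%, 4%, 36% and 70%. The simulation changed few of the 32529 unigenes and none of low level, with normal noise and no floor at 0. Its rates therefore need not hold for these data, where many calls lie near 0 in 1 cultivar. Alternatives covered pseudocounts, filters, scaling, eBayes, the replicate block, depth, weights and left-out libraries. Python 3.11.15, NumPy 2.4.6, SciPy 1.17.1, pandas 2.3.3 and Matplotlib 3.10.9 were used.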

Additional observations from a re-analysis of the deposited data

How the results depend on the processing

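At 30 days 1217 members were called higher in high-starch roots and 896 lower. The numbers were 483 and 409 in a fit of the 6 libraries, 773 and 447 with relative depth as a covariate, 2552 and 1990 with array weights, and 733 and 471 without high-starch replicate 2 and low-starch replicate 1 together (chosen after seeing the data). Pseudocounts of 0.1 and 0.5, filters, median-of-ratios scaling, quantile normalization and eBayes settings kept both numbers within 1.5 times. Leaving out 1 library gave 901 to 1253 and 629 to 1049, and 689 and 533 members were called with all libraries and without each. The replicate block gave 1288 and 986 and called 0 interactions. Deviations of same-numbered libraries had r of 0.28, 0.09 and -0.23 across unigenes, and those of unlike numbers ranged from -0.35 to 0.43. These values cannot show whether the replicate numbers pair the libraries. Of 84 values of the named unigenes under other settings, 78 stayed past the threshold and 0 reversed.

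The share of calls higher under 5 FPKM (72.0%) was 60.1% with quantile normalization, 64.8% with the filter at 5 FPKM and 70.9% to 73.2% leaving out 1 library. At 50 FPKM and over (23.1%) it was 32.4% with quantile normalization, 15.9% to 36.9% leaving out 1 library, and on the other side of 50% with depth as a covariate (66.0%) and without the 2 libraries (51.2%). Members called at 30 days and again in older roots (457 and 367) numbered 697 higher with a pseudocount of 0.1, 1019 and 726 with 30-day calls from 18 libraries, and 0 to 560 and 0 to 258 leaving out 1 library. Separated members ranged from 2679 to 4055 and from 1673 to 3014, and members listed in 1 cultivar from 562 to 919 and from 291 to 479, leaving out 1 library (84 and 94 at 5 FPKM). The interaction to 65 days called 0 to 1 member, that to 100 days 0, leaving out 1 library, and 60 with array weights. Where no cause is visible in the construction, the cause was not tested.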

Other observations

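The numbers in the unigene IDs were looked at. Of the 162 unigenes of the block, 44 had an ID number up to 10000 and 104 one above 40000, together 91.4%, beside 23.3% of all members. Over all called members, 1217 of 2113 were higher in high-starch roots. By ID number the share of calls that were higher was 53.0% up to 10000, 46.8% and 55.3% in the next 2 ranges of 10000, and 66.2% and 66.0% in the ranges above 30000 and above 40000. Among members at 5 FPKM and over it was 31.0%, 33.2%, 45.1%, 57.4% and 51.2%, so that in the range up to 10000 the larger number turned from higher to lower. The median level also differed between the ranges and was lowest, at 3.86 FPKM, up to 10000. The sources used here do not give what the numbering follows.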
